A study of Homo sapiens with 3 samples.

Results

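The 8 genes described here are NOTCH ligands, modulators and target genes: the ligands DLL1 and DLL3, the glycosyltransferase LFNG, the HES-family repressors HES1, HES4, HES6 and HES7, and the feedback regulator NRARP. They were taken by symbol from the 38606 genes of 3 single-cell RNA-seq count matrices, and all 8 were found. The cells were human embryonic stem cells of the HES3 line that carries a GFP reporter in MIXL1, a homeobox gene of the primitive streak. They were grown on coverslips whose printed adhesive areas give each colony a fixed shape and size. The question addressed here is how the level of each gene, and the cells that hold it, differed between 3 ways of inducing differentiation.

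The CHIR+Activin library came from colonies given 3 µM CHIR99021, an inhibitor of the kinase GSK3 that activates WNT signalling, with 100 ng/mL Activin A, a ligand of the NODAL type. The CHIR library came from colonies given 6 µM CHIR99021 alone, and the BMP4 library from colonies given 50 ng/mL of the growth factor BMP4. All cells were seeded in mTeSR Plus with 10 µM of the ROCK inhibitor Y-27632, treated 24 hours later and collected after 48 hours of treatment. About 10 colonies of each treatment were pooled, dissociated and loaded for 10000 cells. The dose of CHIR99021 therefore differed between the CHIR+Activin and CHIR colonies, and no untreated colonies were analysed here.

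NOTCH receptors are cut when a ligand on a neighbouring cell pulls on them, and the freed intracellular domain joins the DNA-binding protein RBPJ to activate genes such as HES1 and NRARP. DLL1 activates NOTCH on neighbours, whereas DLL3 lacks that activity and acts mainly within its own cell. LFNG adds sugars to NOTCH and changes its response to ligands. In mouse presomitic mesoderm, Dll1, Dll3, Lfng and Hes7 form part of the segmentation clock, and mouse Hes6 opposes Hes1. Transcripts were counted here, and NOTCH cleavage was not measured.

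The RBPJ-bound promoter is the point where the pathway acts on its targets, so the promoters of the genes on which the results below turn are shown. Windows from 250 bases before to 50 bases after the start were taken from RefSeq (GRCh38.p14), which held 6 of the 8 genes, DLL1 and DLL3 not among them. Capitals mark each match to GTGNGAA, the core of the RBPJ motif, or to its reverse complement, searched on both strands. HES1 lies on chr3:194135898-194136197 (plus strand), HES4 on chr1:1000048-1000347 (minus strand), HES6 on chr2:238239989-238240288 (minus strand) and NRARP on chr9:137302222-137302521 (minus strand). Each is written 5′ to 3′ on the strand of its gene.
HES1: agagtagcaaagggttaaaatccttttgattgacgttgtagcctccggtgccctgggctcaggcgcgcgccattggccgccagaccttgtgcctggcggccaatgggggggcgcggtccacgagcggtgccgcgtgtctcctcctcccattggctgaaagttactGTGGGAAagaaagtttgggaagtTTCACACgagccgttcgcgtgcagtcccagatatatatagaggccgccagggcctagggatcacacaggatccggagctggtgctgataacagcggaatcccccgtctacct
HES4: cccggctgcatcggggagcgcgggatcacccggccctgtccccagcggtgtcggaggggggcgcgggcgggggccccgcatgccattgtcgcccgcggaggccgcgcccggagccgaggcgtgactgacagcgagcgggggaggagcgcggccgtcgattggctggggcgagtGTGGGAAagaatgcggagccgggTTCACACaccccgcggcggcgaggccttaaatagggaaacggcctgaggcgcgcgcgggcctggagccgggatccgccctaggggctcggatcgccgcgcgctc
HES6: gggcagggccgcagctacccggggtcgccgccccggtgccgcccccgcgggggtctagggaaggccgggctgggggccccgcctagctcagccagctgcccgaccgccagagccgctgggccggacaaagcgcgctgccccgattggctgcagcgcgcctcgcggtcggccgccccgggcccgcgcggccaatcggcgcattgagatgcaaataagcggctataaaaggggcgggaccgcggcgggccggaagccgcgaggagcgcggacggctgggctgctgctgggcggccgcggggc
NRARP: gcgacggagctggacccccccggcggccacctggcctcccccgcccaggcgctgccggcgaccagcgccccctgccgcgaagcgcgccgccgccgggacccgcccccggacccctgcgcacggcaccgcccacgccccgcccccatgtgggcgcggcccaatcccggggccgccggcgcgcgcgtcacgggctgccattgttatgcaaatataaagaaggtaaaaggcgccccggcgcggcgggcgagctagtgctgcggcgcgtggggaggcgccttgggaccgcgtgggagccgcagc
The windows of HES1 and HES4 each held GTGGGAA facing TTCACAC. Their first bases lay 85 and 62 bases upstream of the start in HES1, and 77 and 54 bases upstream in HES4. The windows of HES6, HES7, LFNG and NRARP held no match, which says only that these letters are not in the window. Of all 35116 windows, 4837 (13.8%) held a match and 34 (0.0968%) held a pair that faced each other within 45 bases, a span chosen with these sequences in view. HES1 and HES4, which share this arrangement, both had lower levels in CHIR+Activin than in CHIR, as the values below show. NRARP and HES6, whose windows held no match, were also lower in CHIR+Activin than in CHIR. That direction was therefore not particular to genes with the arrangement. Against BMP4, HES4 was higher in CHIR+Activin and in CHIR, whereas HES1 was slightly higher in CHIR and slightly lower in CHIR+Activin.

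Each treatment was 1 library, so there is no replicate, no test between treatments is possible, and intervals in this text are 95% intervals that cover counting error only. After barcodes with fewer than 2000 genes or more than 15% mitochondrial UMIs (unique molecules) were left out, 6876 CHIR+Activin, 7084 CHIR and 9401 BMP4 cells were kept, with 130592423, 185215378 and 137174566 UMIs and median depths of 17202, 22920 and 12623 UMIs per cell. The files held 7391 CHIR+Activin and 7706 CHIR barcodes before this filter. The BMP4 file held 1935344, empty droplets included, of which the 9440 with at least 3739 UMIs entered it. Pairs of libraries shared 8 to 12 cell barcodes. POU5F1, a defining gene of pluripotent cells, was found in every cluster described below at 153 to 1226 CPM (counts scaled to a common library total). The neural genes PAX6 and SOX1 were at or under 0.162 CPM in every cluster. OTX2, also listed as a neural gene, was a marker of clusters 5, 10, 11, 15 and 17. It had at least 10 CPM there and at least 1.5 times its level in other cells. A level in CPM is summed over cells, so fewer cells with a transcript and less of it per cell cannot be told apart from that level alone.

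Across the libraries, DLL3 and DLL1 stood highest under BMP4, HES6, NRARP and HES4 stood lowest under BMP4, and HES1 and LFNG differed least from BMP4. DLL3 had a level of 13.03 CPM in the CHIR+Activin library (interval 12.4 to 13.7), 11.3 CPM in the CHIR library (10.8 to 11.8) and 31.2 CPM in the BMP4 library (30.3 to 32.1). The BMP4 level was thus 2.76 times the CHIR level, and the 3 intervals did not overlap. DLL1 had 1.96 CPM (1.73 to 2.22) in CHIR+Activin, 2.22 CPM (2.01 to 2.45) in CHIR and 3.97 CPM (3.65 to 4.32) in BMP4. The intervals of the first pair overlapped, and BMP4 lay above both.

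LFNG was low in every library, at 1.99 CPM in CHIR+Activin, 2.06 CPM in CHIR and 1.66 CPM in BMP4, from 260, 382 and 228 UMIs. The interval of CHIR+Activin (1.76 to 2.25) overlapped both others, so its place in the order is not resolved at this depth. The CHIR level was 1.24 times the BMP4 level, and the interval of that log2 ratio (0.07 to 0.55) excluded 0. The levels of DLL3 and DLL1 therefore differed between libraries while LFNG, the enzyme that modifies NOTCH, stayed within 1.24-fold.

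Of the HES genes, HES6 had 53.6 CPM in CHIR+Activin (52.3 to 54.8), 58.6 CPM in CHIR (57.5 to 59.7) and 19.5 CPM in BMP4 (18.7 to 20.2). HES1, a widely used readout of NOTCH activity, had 30.1 CPM in CHIR+Activin (29.2 to 31.1), 39.01 CPM in CHIR (38.1 to 39.9) and 34.04 CPM in BMP4 (33.1 to 35.03). The order of HES1 was CHIR, BMP4, CHIR+Activin, with no overlap of intervals, but the extremes were only 1.30-fold apart. HES4, a relative of HES1, was scarce, with 63 UMIs in CHIR+Activin (0.482 CPM), 218 in CHIR (1.18 CPM) and 12 in BMP4 (0.0875 CPM). HES7, the clock repressor, was scarcer still, with 20 UMIs in CHIR+Activin (0.153 CPM), 30 in CHIR (0.162 CPM) and 69 in BMP4 (0.503 CPM). These 2 rare genes lay in opposite order, HES4 lowest and HES7 highest under BMP4. NRARP, a NOTCH target whose protein limits NOTCH signalling, had 8.12 CPM in CHIR+Activin (7.64 to 8.62), 10.8 CPM in CHIR (10.3 to 11.3) and 4.30 CPM in BMP4 (3.96 to 4.66). Its 3 intervals did not overlap.

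**Figure D1:**
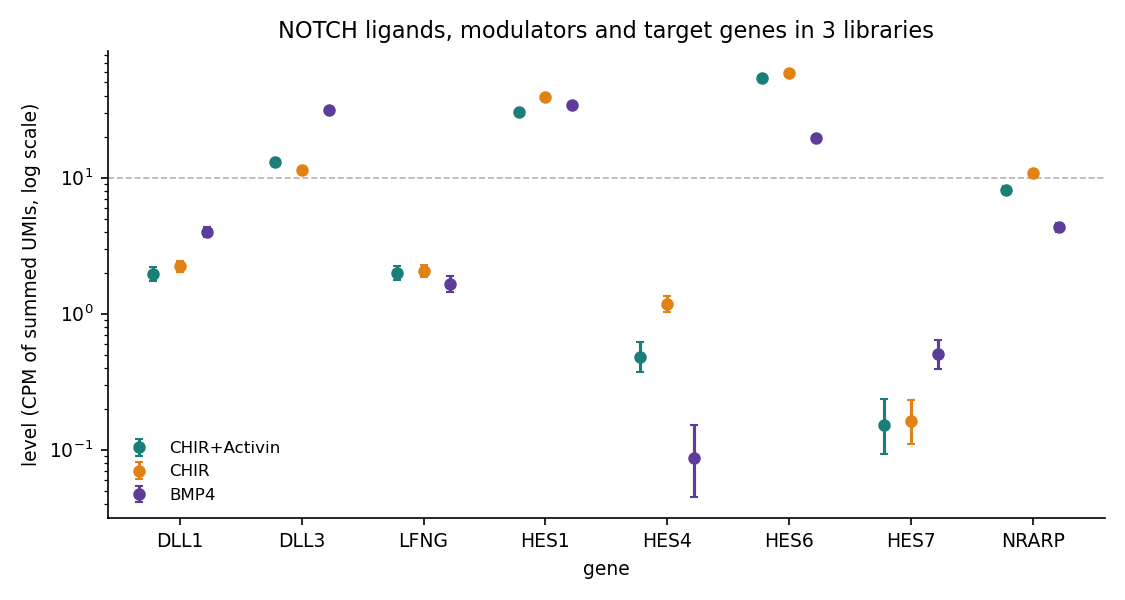
Level of each gene (CPM of UMIs summed over kept cells, log scale) in the CHIR+Activin, CHIR and BMP4 libraries. Bars are exact Poisson intervals for counting error, and the dashed line is the 10 CPM used to count genes. DLL3 is highest in BMP4 at 31.2 CPM, while HES6 (19.5 CPM) and NRARP (4.30 CPM) are lowest there.

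For CHIR+Activin over CHIR, 4 members reached 10 CPM in 1 of the libraries and 0 of them were at least 2-fold apart. Among all 9821 genes at that level, 0.183% were at least 2-fold higher and 0.0204% at least 2-fold lower, so a count of 0 is what the background holds. The median log2 ratio of the 4 members was -0.25, against -0.05 over all genes. HES1 had a log2 ratio of -0.37 (interval -0.43 to -0.32), NRARP -0.41 (-0.52 to -0.30), HES6 -0.13 (-0.17 to -0.09) and DLL3 0.20 (0.11 to 0.30). HES4, under the 10 CPM limit, had a ratio of -1.29 (-1.72 to -0.88), lower in CHIR+Activin. DLL1 at -0.18 (-0.41 to 0.05), HES7 at -0.08 (-0.97 to 0.78) and LFNG at -0.05 (-0.28 to 0.18) had intervals that held 0. With the limit at 1 CPM, HES4 was the 1 of 7 members at least 2-fold lower (0.0958% of all genes) and 0 were higher (0.467% of all genes).

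For CHIR+Activin over BMP4, 3 members reached 10 CPM. HES6 was at least 2-fold higher (log2 ratio 1.46, interval 1.39 to 1.52), where the background share is 1.84% of 9968 genes. DLL3 was at least 2-fold lower (-1.26, interval -1.34 to -1.18), where it is 2.88%. HES1, the other gene counted, had -0.18 (-0.24 to -0.12), which was the median of the 3, against -0.01 over all genes. Among genes under the limit, DLL1 had -1.02, HES7 -1.72 (-2.51 to -0.98), LFNG 0.26, NRARP 0.92 and HES4 2.46 (1.56 to 3.49). With the limit at 1 CPM, HES6 was again the 1 of 6 members at least 2-fold higher (2.79% of all genes), and DLL1 and DLL3 were lower (4.57%).

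For CHIR over BMP4, 4 members reached 10 CPM. HES6 (log2 ratio 1.59, interval 1.53 to 1.65) and NRARP (1.33, 1.19 to 1.46) were at least 2-fold higher, where the background share is 2.85% of 10122 genes. DLL3 was at least 2-fold lower (-1.46, -1.54 to -1.39), where it is 3.09%. HES1 had 0.20 (0.14 to 0.25). The median over the 4 was 0.76, against 0.03 over all genes. Under the limit, HES4 had 3.75 (2.92 to 4.72), DLL1 -0.84, HES7 -1.63 (-2.30 to -0.997) and LFNG 0.31 (0.07 to 0.55). With the limit at 1 CPM, HES4, HES6 and NRARP were at least 2-fold higher among 7 members (4.77% of all genes), and DLL3 was lower (4.69%). This comparison shares its BMP4 cells with the CHIR+Activin one, so the likeness of their values is partly the same measurement.

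To compare the share of cells in which a transcript was seen, each cell was thinned to 10000 UMIs, which left out 333 CHIR+Activin, 192 CHIR and 2360 BMP4 cells of lower depth. DLL3 was then seen in 12.2% of CHIR+Activin cells, 10.7% of CHIR cells and 22.7% of BMP4 cells. HES6 was seen in 38.5% of CHIR+Activin, 42.9% of CHIR and 16.5% of BMP4 cells. HES1 was seen in 23.7%, 29.7% and 26.1% of cells in the same order of libraries, and NRARP in 7.43%, 9.94% and 4.09%. For these 4 genes the share of cells ordered the libraries as the level did. Without thinning, DLL3 was seen in 20.4% of CHIR+Activin, 24.4% of CHIR and 28.1% of BMP4 cells, which sets CHIR above CHIR+Activin, against the order of their CPM. HES1 likewise came out higher in CHIR+Activin (36.1%) than in BMP4 (33.7%) without thinning, and DLL1 lay at 5.45% in CHIR and 5.10% in BMP4. Those orders are not read. DLL1 and LFNG were seen in 1.52% to 3.49% of thinned cells, and HES4 and HES7 in less than 1% of the cells of any library. Droplets of the BMP4 file with 1 to 100 UMIs, which hold free RNA, had DLL3 at 33.4 CPM, HES1 at 28.7 CPM, HES6 at 24.0 CPM, DLL1 at 3.95 CPM and HES7 at 0.545 CPM from 4 UMIs. HES6 (interval 20.6 to 27.8), NRARP (7.08 CPM) and LFNG (5.31 CPM) were higher in these droplets than in BMP4 cells beyond their intervals, HES1 (24.99 to 32.9) was lower, and the intervals of DLL1, DLL3, HES4 and HES7 overlapped those of the cells. Free RNA can thus supply single UMIs of every member, and the part it plays in shares near these low levels was not tested.

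To see which cells held each gene, the cells of the 3 libraries were clustered together on 2000 variable genes with the 8 members left out. The result was 17 clusters, referred to by number and leading genes. At least 98% of clusters 2, 5, 6, 13 and 14 came from the BMP4 library, so few cells of another library stand beside the BMP4 cells there. Cluster 2 (2360 BMP4 cells) was led by the mesoderm genes MSGN1, MESP1 and MESP2, and cluster 5 (1953 BMP4 cells) by LGR5, IRX3, APLNR and BMPER. Clusters 1, 3, 4, 7, 9 and 11 held at least 100 cells of every library. Of these, cluster 1 had the epiblast genes SOX2, USP44 and DPPA2 among its markers, cluster 3 was led by LEFTY2, and cluster 4 was led by the stress gene DDIT4. Cluster 15, with SOX17 and CER1 among its leading genes, held 317 CHIR+Activin and 142 BMP4 cells.

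DLL3 was concentrated in clusters 5 and 2 of the BMP4 library. It reached 89.5 CPM (85.9 to 93.2) in BMP4 cells of cluster 5 and 35.1 CPM (33.2 to 37.1) in those of cluster 2. These clusters held 54.6% and 29.5% of the DLL3 UMIs of BMP4, but 19.02% and 26.2% of all its UMIs. After thinning, a DLL3 UMI was found in 57.8% of cluster 5 cells (55.2 to 60.4), in 26.6% of cluster 2 cells (24.5 to 28.7) and in 6.11% of cluster 6 cells (4.96 to 7.43). Cells of 1 library at 1 depth thus differed in their DLL3 share beyond counting error. The few CHIR+Activin cells of these clusters also held DLL3. Those of cluster 5, 39 cells with 0.524% of the UMIs of that library, had 90 DLL3 UMIs, 5.29% of its total, and 24 cells of cluster 2 had 18 DLL3 UMIs with 0.305% of all UMIs and 1.06% of those of DLL3. CHIR had 0 cells in either cluster. Outside these 2 clusters, the next DLL3 levels were in cluster 15, at 24.7 CPM (20.9 to 29.0) in CHIR+Activin and 24.98 CPM (18.2 to 33.4) in BMP4. All other groups of at least 100 cells lay at or under 15.01 CPM.

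DLL1 followed DLL3 in part. BMP4 cells of cluster 5 had 9.55 CPM (8.40 to 10.8), with 45.7% of the DLL1 UMIs of the library, and those of cluster 2 had 3.73 CPM. Cluster 14, led by CLDN10 and HPGD with the amnion gene ISL1, had DLL1 at 4.18 CPM in its BMP4 cells, but DLL3 at 9.19 CPM. DLL1 was also comparatively high in clusters 9 and 11, with 3.51 and 4.18 CPM in CHIR+Activin, 4.97 and 4.22 CPM in CHIR and 8.85 and 3.83 CPM in BMP4, the last 2 from few cells. These clusters also had lower depth. In CHIR their median UMIs per cell were 17626 and 15458. TOP2A, a gene of dividing cells, was at 98.01 and 151 CPM there, against 324 CPM in cluster 1. MKI67, another such gene, was also lower there than in cluster 1. CDC20 (127 and 158 CPM, against 99.5 CPM), CCNB1, PCNA, MCM6 and CCNE2 were higher there. CHIR cells of clusters 10 and 12 had TOP2A at 124 and 96.3 CPM, but DLL1 at 1.26 and 1.39 CPM. The part that depth or cell cycle plays in these DLL1 levels was not tested.

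HES1 had another distribution. It was low in the SOX2-rich cluster 1, at 14.3 CPM in CHIR+Activin, 21.1 CPM in CHIR and 12.5 CPM in BMP4. In CHIR+Activin and CHIR these were the lowest values among groups of at least 100 cells. Low HES1 was not particular to cluster 1, however. Cluster 12, led by histone genes and without SOX2 among its markers, had 15.9 CPM in CHIR+Activin and 22.03 CPM in CHIR. Its intervals overlapped those of cluster 1 in both libraries. Clusters 3 and 9, which also had SOX2 among their markers, had more HES1 than cluster 1 in these libraries. The levels were 26.9 and 24.8 CPM in CHIR+Activin and 35.0 and 37.2 CPM in CHIR. BMP4 cells of cluster 3 had 31.0 CPM. In BMP4, clusters 4 (12.04 CPM), 9 (12.5 CPM) and 16 (12.1 CPM) were as low as cluster 1. Cluster 10 had the streak and endoderm genes MIXL1, EOMES and FOXA2 among its markers. HES1 was high there, at 50.6 CPM in CHIR+Activin and 58.2 CPM in CHIR. The highest levels were 63.3 CPM (57.1 to 70.0) in CHIR+Activin cells of cluster 15 and 63.0 CPM (56.9 to 69.6) in CHIR cells of cluster 11. The BMP4 cells of cluster 15 had 26.6 CPM (19.6 to 35.3), below the CHIR+Activin cells of the same cluster. In the BMP4-only clusters HES1 ranged between 26.5 CPM in cluster 13 and 41.8 CPM in cluster 14, a narrower spread than that of DLL3.

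HES6 was highest in cluster 4 in CHIR+Activin, at 74.2 CPM (69.6 to 78.9), and in CHIR, at 73.5 CPM (70.1 to 77.1). In BMP4 it had 38.5 CPM (32.1 to 45.8) in cluster 4 and 41.3 CPM (33.0 to 51.2) in cluster 3, whose intervals overlapped. The BMP4-only clusters and the BMP4 cells of clusters 15 and 16 had 12.0 to 21.1 CPM, and every other group of at least 100 cells lay at or above 29.1 CPM. HES4 was also highest in cluster 4 of CHIR, at 2.20 CPM from 52 UMIs. In the BMP4-only clusters 2, 5, 6, 13 and 14 it stood between 0 and 0.228 CPM. HES7 had 1.002 CPM (0.702 to 1.39) in BMP4 cells of cluster 2, the cluster led by MSGN1, which held 36 of the 69 HES7 UMIs of the library.

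NRARP was low in the clusters richest in DLL3, but also in some where DLL3 was low. Its levels in cluster 1 were 10.3 CPM in CHIR+Activin, 12.8 CPM in CHIR and 11.8 CPM in BMP4, and in CHIR cells of cluster 9 it reached 15 CPM. In BMP4 cells of clusters 5 and 2 it was 2.22 CPM (1.69 to 2.87) and 2.90 CPM, and in CHIR+Activin cells of cluster 15 it was 3.15 CPM (1.90 to 4.92). In CHIR+Activin and BMP4, the clusters with the most DLL3 thus had little NRARP. BMP4 cells of clusters 6 and 13 had little of either, with NRARP at 4.31 and 4.57 CPM and DLL3 at 7.21 and 10.6 CPM. LFNG stayed at or under 5.19 CPM in every group, and that value came from 3 UMIs in cluster 16. In cluster 1 it was at 3.32 CPM in CHIR+Activin and 2.87 CPM in CHIR.

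**Figure D2:**
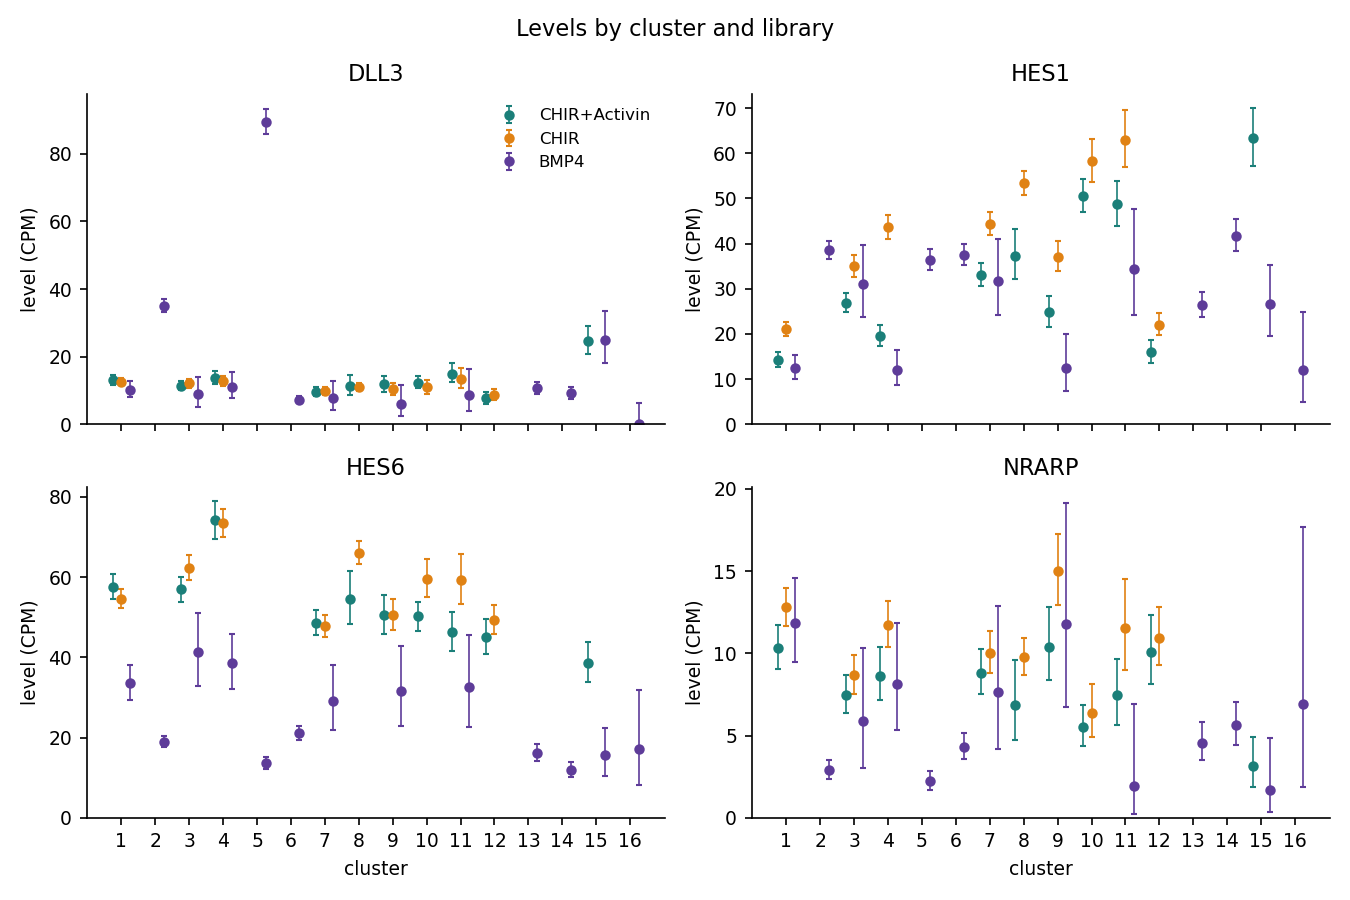
Level (CPM) of DLL3, HES1, HES6 and NRARP in each cluster, for groups of at least 100 cells of the CHIR+Activin, CHIR and BMP4 libraries. Bars are exact Poisson intervals for counting error. DLL3 stands at 89.5 CPM in BMP4 cells of cluster 5, and NRARP is at 2.22 CPM there.

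Within clusters that both libraries shared, the differences between treatments took another form. Clusters found almost wholly in BMP4 drop out of these values. Pooled values sum the UMIs of all shared clusters, so they also depend on how the cells of each library are spread over them. For CHIR over BMP4, DLL3 was higher under CHIR in 6 of 6 shared clusters (median log2 ratio 0.40), and pooled over them it had 11.8 CPM in CHIR and 9.49 CPM in BMP4. Its log2 ratio over the shared clusters was 0.31 (0.08 to 0.56), opposite in sign to the -1.46 of the whole libraries. The interval of each single cluster held 0. For CHIR+Activin over BMP4, DLL3 was higher in 6 of 7 clusters and 0.23 (0.01 to 0.44) when pooled, again opposite to the -1.26 of the whole libraries. With this clustering, the higher DLL3 level of BMP4 was thus found in its cells outside the shared clusters.

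HES6 kept its direction within shared clusters with a smaller size. Pooled over 6 clusters it had 58.03 CPM in CHIR and 34.8 CPM in BMP4, a log2 ratio of 0.74 (0.62 to 0.86), and it was higher under CHIR in 6 of 6 clusters. CHIR+Activin over BMP4 gave 0.75 (0.63 to 0.87), higher in 7 of 7. HES1, nearly level between the whole libraries, had 36.0 CPM in CHIR and 18.1 CPM in BMP4 over the shared clusters. Its pooled log2 ratio was 0.99 (0.82 to 1.16), and it was higher in 6 of 6 clusters, with a median of 0.81. In cluster 3 its interval held 0, at 0.17 (-0.20 to 0.57). In cluster 4 HES1 stood at 43.6 CPM in CHIR and 12.04 CPM in BMP4. CHIR+Activin over BMP4 gave a pooled 0.56 (0.40 to 0.73) for HES1, higher in 6 of 7 clusters. There the intervals of clusters 1, 3 and 7 held 0, and cluster 3 had -0.21. NRARP had a pooled 0.30 (0.06 to 0.54) for CHIR over BMP4 and was higher in 6 of 6 clusters (median 0.46). For CHIR+Activin over BMP4 it had a pooled -0.01 (-0.26 to 0.24), whose interval held 0. It was nevertheless higher in 5 of 7 clusters there (median 0.20). For CHIR over BMP4, its interval in each single cluster held 0 except in cluster 11, which had 2 NRARP UMIs in BMP4.

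Between CHIR+Activin and CHIR, 9 clusters were shared. HES1 was lower in CHIR+Activin in 9 of 9, with a median log2 ratio of -0.47 and a range of -1.16 in cluster 4 to -0.20 in cluster 10. Activin and the lower dose of CHIR99021 cannot be told apart here. NRARP was also lower in 9 of 9 (median -0.31), though its intervals in clusters 3, 7, 8, 10 and 12 held 0. HES4 was lower in 9 of 9 on few UMIs. HES6 was lower in 6 and higher in 3, and DLL3 was higher in 6 and lower in 3 with a pooled ratio of 0.05 (-0.05 to 0.14). The cells of 1 cluster come from 1 library per treatment, so these counts of clusters are not counts of replicates.

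**Figure D3:**
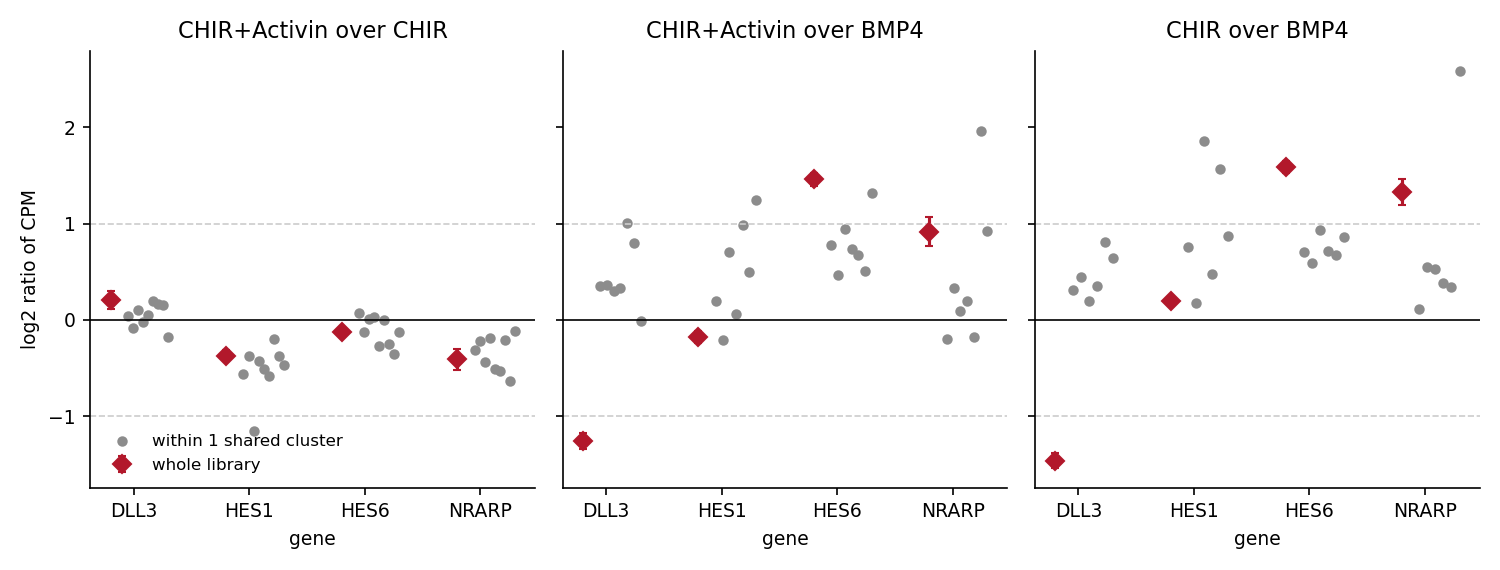
Log2 ratio of CPM of DLL3, HES1, HES6 and NRARP for CHIR+Activin over CHIR, CHIR+Activin over BMP4 and CHIR over BMP4. Diamonds are whole libraries with their counting interval, grey points single clusters with at least 100 cells in both libraries, and dashed lines 2-fold. For CHIR over BMP4, DLL3 is at -1.46 in the whole libraries but above 0 in all 6 shared clusters.

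Single genes that mark germ layers gave a view that does not depend on clusters. Thinned cells were split by whether they held at least 1 UMI of a mark. In BMP4, DLL3 was seen in 34.2% of cells with the mesoderm factor MESP1 (32.7 to 35.7) and in 7.72% of cells without it (6.80 to 8.72). In CHIR+Activin, where 173 cells held MESP1, the DLL3 shares were 33.5% (26.5 to 41.1) with it and 11.6% without it. In CHIR, 4 of the 40 cells with MESP1 held DLL3 (10.0%, 2.79 to 23.7), against 10.7% without it. DLL3 therefore went with MESP1 in CHIR+Activin and BMP4, and no such difference was detectable in the few MESP1 cells of CHIR. In BMP4, TBX6 and HAND1 also went with DLL3, at 42.8% with and 20.01% without TBX6, and 37.5% with and 15.03% without HAND1. Cells with the amnion factor TFAP2A had less DLL3, at 11.2% with and 25.1% without it.

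The DLL3 share of BMP4 cells was 7.72%, 16.7%, 27.2%, 31.6% and 36.3% in cells with 0, 1, 2, 3 and 4 MESP1 UMIs, and 47.2% in cells with 5 or more. DLL1 was seen in 1.995% of BMP4 cells with 0 MESP1 UMIs and in 7.04% of those with 5 or more. Split by both marks, DLL3 was seen in 44.5% of BMP4 cells with MESP1 and HAND1, 24.6% with MESP1 only, 9.88% with HAND1 only and 7.31% with neither. The intervals of the last 2 shares (7.37 to 12.9 and 6.34 to 8.39) overlapped. In the same 4 sets, DLL1 was seen in 6.55%, 2.86%, 3.50% and 1.71% of cells. The WNT-pathway receptor LGR5, a leading gene of cluster 5, also ordered BMP4 cells by DLL3, at 18.03% with 0, 46.3% with 1, 55.8% with 2 and 57.5% with 3 or more LGR5 UMIs. The bins of MESP1, LGR5, EOMES, SOX2 and MSGN1 UMIs were chosen after the splits by single marks had been seen.

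HES1 went with streak and endoderm marks and against SOX2. In CHIR+Activin it was seen in 32.2% of cells with the T-box gene EOMES, which is active in streak and endoderm, and in 17.2% of cells without it. In CHIR these shares were 36.1% and 24.7%, and in BMP4 27.5% and 24.04%. The contrast by EOMES was therefore smallest in BMP4. With 3 or more EOMES UMIs, HES1 was seen in 40.02% of CHIR+Activin, 43.5% of CHIR and 29.6% of BMP4 cells. Cells with SOX17, a defining factor of endoderm, had HES1 in 44.9% of 136 CHIR+Activin cells (36.3 to 53.6), against 23.3% of those without. In BMP4, where SOX17 marks cluster 13 as well, the shares were 24.9% with and 26.4% without it. HES1 was seen in 18.7% of CHIR+Activin, 24.0% of CHIR and 17.7% of BMP4 cells with SOX2, against 28.5%, 34.0% and 27.5% of cells without it.

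NRARP went the other way. It was seen in 8.78% of CHIR+Activin, 11.04% of CHIR and 7.03% of BMP4 cells with SOX2, against 6.17%, 9.10% and 3.61% of cells without it. In BMP4 cells with 2 SOX2 UMIs the share was 8.57% (5.16 to 13.2), and with 3 or more it was 7.55% (3.96 to 12.8). With MESP1 the NRARP share was 2.41% of BMP4 cells, against 6.28% without it. In CHIR+Activin the corresponding shares were 2.89% of 173 cells (0.945 to 6.62) and 7.55%. The relation of HES6 to SOX2 differed between the libraries. It was seen in 38.5% of CHIR+Activin cells both with and without SOX2, in 40.1% of CHIR cells with it (38.4 to 41.9) and 44.96% without it (43.4 to 46.5), and in 23.1% of BMP4 cells with it (20.5 to 25.9) and 15.4% without it (14.5 to 16.4). HES7 was seen in 7 of 403 BMP4 cells with MSGN1 (1.74%, 0.701 to 3.55) and in 20 of 6638 without it (0.301%, 0.184 to 0.465).

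**Figure D4:**
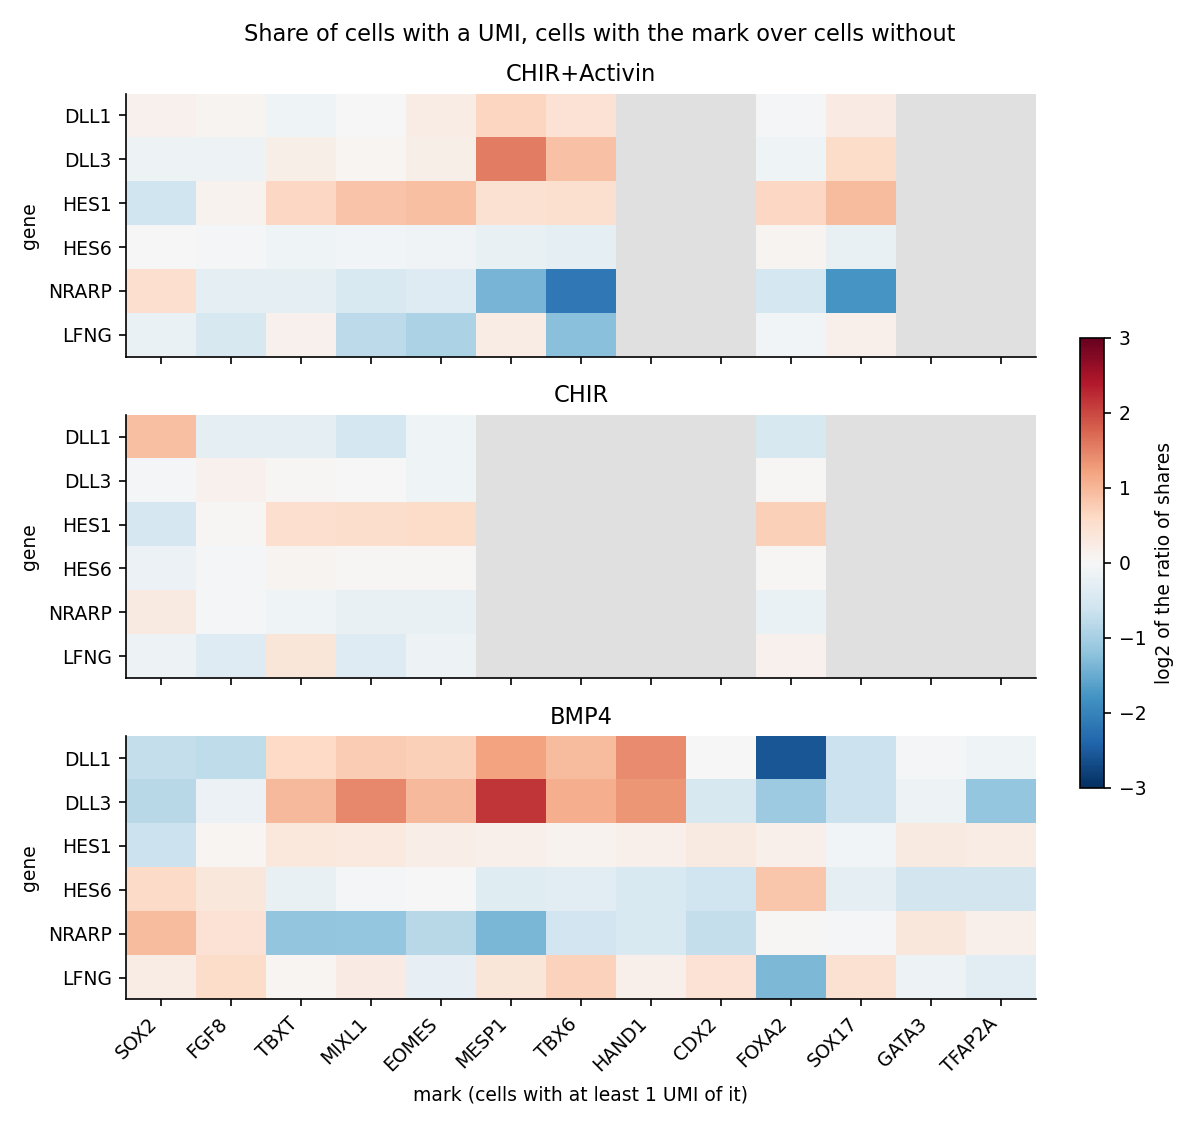
Ratio, on a log2 colour scale, of the share of cells with a UMI of each gene (rows) in cells with a mark to that in cells without it (columns), for thinned CHIR+Activin, CHIR and BMP4 cells. Grey fields had fewer than 100 cells with the mark. In BMP4 the darkest DLL3 field is MESP1 (34.2% of cells with it, 7.72% without). The dark DLL1 field at FOXA2 in BMP4 rests on 1 of 166 cells.

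**Figure D5:**
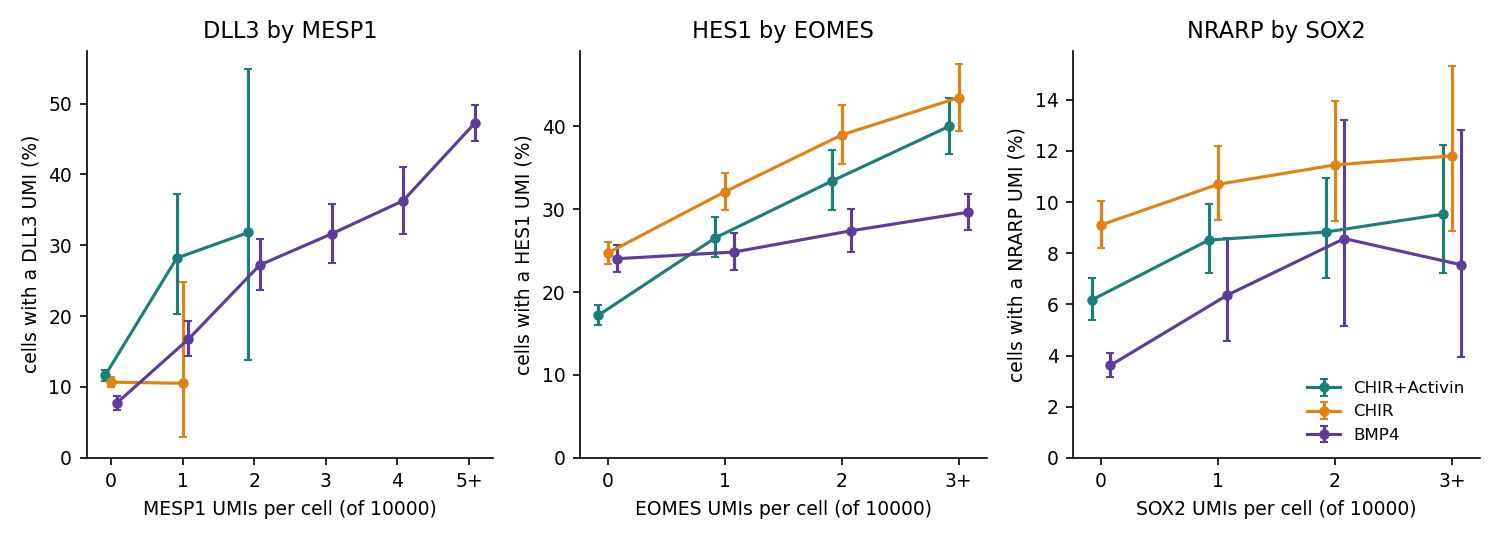
Share of thinned cells (%) with a DLL3, HES1 or NRARP UMI, by the number of UMIs of MESP1, EOMES or SOX2 in the same cell, in CHIR+Activin, CHIR and BMP4. Bars are exact binomial intervals, and bins under 20 cells are left out. The DLL3 share of BMP4 cells runs between 7.72% at 0 and 47.2% at 5 or more MESP1 UMIs.

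Members were also compared within single cells. DLL1 and DLL3 were both seen in 17 CHIR+Activin cells, 21 CHIR cells and 92 BMP4 cells. The products of their separate shares give 15.02, 17.5 and 55.9 cells. The BMP4 count was 1.65 times its product (1.33 to 2.02), but within cluster 5 it was 66 against 63.03, and within cluster 2 it was 19 against 17.3. The joint count of the whole BMP4 library was thus above its product while the counts inside its 2 DLL3-rich clusters were close to theirs. DLL3 and HES7 were both seen in 12 BMP4 cells, 1.96 times the product (1.01 to 3.42). That pair was too rare to be compared within clusters. DLL3 and HES1 were seen together in 428 BMP4 cells, 1.02 times the product (0.93 to 1.13), and DLL3 and HES6 in 232 cells, 0.88 times (0.77 to 0.999). Within clusters 2 and 5, the counts of DLL3 with HES6 were close to their products, at 71 against 73.4 and 103 against 101. DLL3 and NRARP were both seen in 47 BMP4 cells, 0.72 times the product (0.53 to 0.96). In clusters 2 and 5 their counts were 8 against 10.1 and 18 against 17.3. DLL1 and NRARP were both seen in 27 CHIR cells, 1.66 times the product (1.09 to 2.41). DLL3 and HES4 were both seen in 0 CHIR+Activin cells, against a product of 4.52.

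Over the 32 groups of 1 cluster and 1 library with at least 100 cells, Pearson's r of log2(CPM + 1) served as a description of likeness. The groups share libraries and depth, and no test applies. HES6 was most like HES4 among the members (r = 0.72), then NRARP (0.64), and HES4 and NRARP had 0.54. DLL3 had 0.42 with HES7 and 0.40 with HES1, -0.39 with NRARP, and 0.23 with DLL1. Among 10148 genes of at least 10 CPM, the nearest to DLL3 were SOCS1 (0.90), CALM3, EFHD2, COA5 and GYPC. Nearest to HES6 were GCAT (0.93), TXNIP, the stress gene DDIT4 (0.91), PRR7 and TRAP1, and nearest to NRARP were TRIM25 (0.92), CDH3, FERMT1 and NLRP2. HES1 lay nearest to DRG1 (0.83), GAD1, KCNG1 and MSI1. Those of DLL1 (led by PTCH1, the Hedgehog receptor, at 0.74), HES4 (CNIH1, 0.81), LFNG (NHEJ1, 0.81) and HES7 (PCDH19, 0.62) rest on lower counts of the member.

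Most other genes of the pathway stood at like levels in the 3 libraries. Of 46 other NOTCH pathway genes, 28 reached 10 CPM in CHIR+Activin or CHIR, and 0 were at least 2-fold apart there. Against BMP4, 1 of 27 was at least 2-fold higher in CHIR+Activin and 1 of 28 in CHIR, and 0 were lower in either, where 1.84% and 2.85% of all genes were higher, so these counts are near the background. In both cases it was NEURL1B, a ubiquitin ligase of NOTCH ligands, at 16.3 CPM in CHIR+Activin, 22.2 CPM in CHIR and 7.82 CPM in BMP4. With the limit at 1 CPM, the ligand JAG2 (2.41 CPM in CHIR+Activin, 2.22 in CHIR and 1.06 in BMP4) was also at least 2-fold higher in both, HEYL (1.02 CPM in CHIR and 0.474 in BMP4) was so in CHIR, and the acetyltransferase KAT2B (1.62 CPM in CHIR+Activin, 1.40 in CHIR and 4.46 in BMP4) was lower in both. The receptors NOTCH1, NOTCH2 and NOTCH3 stood at 20.4 to 27.3 CPM in every library, and NOTCH4 under 1 CPM. JAG1 was the other ligand over 10 CPM, at 16.04 CPM in CHIR+Activin, 20.8 CPM in CHIR and 19.3 CPM in BMP4, and DLL4 had 8, 19 and 2 UMIs. RBPJ stood at 220 CPM in CHIR+Activin, 229 CPM in CHIR and 180 CPM in BMP4. HEY2, another target gene, had 22.3 CPM in CHIR+Activin, 25.8 CPM in CHIR and 13.7 CPM in BMP4, whereas HES5 had 1, 0 and 0 UMIs.

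Of 17 presomitic and segmentation genes, a list that holds DLL1, DLL3, LFNG and HES7, 9 reached 10 CPM in each comparison with BMP4. At least 2-fold lower were 5 of 9 in CHIR+Activin and 4 of 9 in CHIR, and 0 of 9 were higher in either. Of all genes, 2.88% and 3.09% were lower. Apart from DLL3 these were MESP1 (4.79 CPM in CHIR+Activin, 0.734 in CHIR and 245 in BMP4), MESP2 (0.927, 0.567 and 33.3 CPM), TBX6 (1.83, 0.966 and 13.3 CPM) and, in CHIR+Activin only, NKD1 (19.0, 24.4 and 45.03 CPM), whose log2 ratio was -0.88 for CHIR over BMP4. Of 6 such genes measured between CHIR+Activin and CHIR, 0 were at least 2-fold apart. DLL3 was thus among the segmentation genes that stood higher under BMP4, whereas LFNG, of the same list, stood at 1.66 to 2.06 CPM in every library. Other genes of the list were not higher under BMP4 either. AXIN2 had 30.8 CPM in CHIR+Activin, 33.1 CPM in CHIR and 21.4 CPM in BMP4, and SPRY2 had 32.6, 36.0 and 34.9 CPM.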

How the data were processed

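Single-cell libraries (10x 3′ chemistry) of 3 treatments were analysed, 1 library each. The authors deposited UMI counts per gene and barcode. Per the file headers these came from Cell Ranger 8.0.1. Seurat is also named in the submitters' processing notes. Neither build nor annotation is given in the sources used here. The CHIR+Activin and CHIR files held called cells and the BMP4 file all barcodes, of which those with at least 10% of the 99th percentile of the top 10000 were taken. Members and gene lists were chosen with earlier results of these data known. Levels are CPM of the UMIs of all kept cells together, and ratios have exact conditional binomial intervals. Levels have exact Poisson and shares exact Clopper-Pearson intervals. In CHIR+Activin, CHIR and BMP4, 3 counts, the limit that a count of 0 allows, equal 0.0230, 0.0162 and 0.0219 CPM. Members of at least 10 CPM in either library were counted at 2-fold. Of other lists, genes at that level and 2-fold apart were named, and the 5 genes most like each member were found by Pearson's r, of which some are not reported here. Cells were clustered in Python 3.11.15 with scanpy 1.11.5 and igraph 0.11.9 (30 principal components, 20 neighbours, Leiden resolution 1). A simulated-doublet score called 0 cells in each library, so it did not work as a caller and no doublets were removed. The 6% of cells with the highest scores were left out as an alternative, and edgeR 4.0.16 (R 4.3.3) gave TMM factors for another. Steps were tested on simulated data.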

Additional observations from a re-analysis of the deposited data

How the results depend on the processing

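The counts of members at least 2-fold apart were the same with stricter cell filters, without high doublet scores, with TMM scaling, with equal weight per cell and with thinned cells. Without a minimum level they were 1 for CHIR+Activin over CHIR, 5 for CHIR+Activin over BMP4 and 5 for CHIR over BMP4. Restricted to clusters with at least 100 cells in both libraries, an alternative chosen after seeing the data, the last 2 counts were 0 and 0. Counts over all genes in the same order of pairs were 20, 470 and 601, then 8, 77 and 98 in shared clusters, and 94, 1245 and 1621 with a minimum of 1 CPM. The shared clusters leave out cells by construction. Of ratios at least 2-fold, they reversed those of DLL1 (0.12) and DLL3 (0.23) for CHIR+Activin over BMP4 and of DLL3 (0.31) for CHIR over BMP4. Of smaller ratios, HES1 (0.56) and NRARP (-0.01) for CHIR+Activin over BMP4 and DLL1 (0.26) for CHIR over BMP4 also changed sign there, as did, for CHIR+Activin over CHIR, HES7 without high doublet scores (0.07) and LFNG with TMM scaling (0.01). Of 144 log2 ratios recomputed, 121 stayed within the counting interval, 20 moved beyond it and 3 were at least 2-fold and changed sign. Of 104 recomputed shares of cells, at other depths, without thinning or with a limit of 2 UMIs among them, 70 moved by more than their interval. TMM scaling shifted all log2 ratios by 0.06, 0.02 and -0.04. At other clustering resolutions, the highest level of a gene in any cluster lay outside the interval of that at resolution 1 in 7 of 16 cases. No paired analysis was possible because each treatment had 1 library. Depth limits HES4 and HES7 most, with 12 to 218 UMIs per library.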
